A study of Mus musculus with 9 samples.

Results

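Von Willebrand factor (Vwf), P-selectin (Selp), pro-platelet basic protein (Ppbp) and platelet factor 4 (Pf4) were followed across RNA libraries of bone marrow endothelial progenitor cells (EPCs) as a set of 4 genes, chosen by symbol as cargo of secretory granules, out of 2810 genes listed in any of the deposited tables. All 4 are listed in the comparison of EPCs from male mice (M-EPCs) with EPCs from female mice (F-EPCs), which holds 2093 genes, and in that of M-EPCs with EPCs from ovariectomized females (OVX-EPCs), which holds 1317. None of the 4 is among the 811 genes of the F-EPC and OVX-EPC comparison. The genes were chosen with their changes between M-EPCs and the other groups already known, so these changes are given as a description and without a test.

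Each group had 3 libraries, 9 in all. C57BL/6 J mice of 8 weeks were used, and the ovaries of the OVX mice had been removed at about 35 days of age. In all groups, Sca-1+/CD31+ cells were selected with magnetic beads from lineage-depleted marrow and grown in EGM-2, an endothelial growth medium, although another label calls the cells freshly isolated. The labels do not say how many mice or cultures a library holds, so the spread given here is that between libraries. The study's methods describe library preparation and speak of biological replicates for the comparison of expression, without giving the mice or cultures in each library. Each deposited value is a normalized count, the reads of a gene divided by a size factor of the library. To set all 9 libraries side by side, the OVX-EPC values were multiplied by 0.978, a factor that brings the M-EPC libraries of both of their tables to nearly equal values (0.977 to 0.979 by library) (linked normalized counts below). Reads on listed genes lay between 1602317 and 2070442 per library for M-EPCs and F-EPCs and between 707791 and 923145 for M-EPCs and OVX-EPCs, and the total depth is not known. Xist reads lay between 0 and 6 in M-EPCs and between 40935 and 50237 in OVX-EPCs, as the labels require.

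Megakaryocytes, and the platelets they shed, pack alpha granules with adhesive proteins and chemokines, and endothelial cells store a partly shared cargo in Weibel-Palade bodies. Vwf is the multimeric glycoprotein that tethers platelets to injured vessel walls and gives the Weibel-Palade body its shape. Selp is a membrane protein of both granules that, once brought to the cell surface, lets leukocytes roll. Ppbp, the precursor of chemokines such as CXCL7 that attract neutrophils, and Pf4, a heparin-binding chemokine also called CXCL4, are regarded as products of the megakaryocyte lineage and not of endothelium. The set therefore holds a pair shared with endothelium (Vwf and Selp) and a platelet-restricted pair (Ppbp and Pf4).

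In the mouse genome build GRCm38, the labels' mm10, Vwf (ENSMUSG00000001930.17) lies on chr6:125546774-125686679 and Selp (ENSMUSG00000026580.16) on chr1:164115264-164150026. Ppbp (ENSMUSG00000029372.7) lies on chr5:90768518-90770063 and Pf4 (ENSMUSG00000029373.7) on chr5:90772435-90773383. All are on the plus strand, and 2371 bases separate the end of Ppbp from the start of Pf4. The promoters of the 3 members with a match among the promoter sequences used are shown. All 3 genes were lower in M-EPCs, by different amounts, and their promoters can be compared. Each is the 250 bases before the gene start in RefSeq GRCm38.p6, plus strand, at chr1:164115014-164115263 for Selp, chr5:90768268-90768517 for Ppbp and chr5:90772185-90772434 for Pf4. Capitals mark a GATA core, which GATA factors bind, and an ETS core, which ETS factors such as Fli1 bind. The GATA core is printed as GATA, or as TATC where it lies on the minus strand. The ETS core is printed as GGAA, or as TTCC where it lies on the minus strand.
Selp: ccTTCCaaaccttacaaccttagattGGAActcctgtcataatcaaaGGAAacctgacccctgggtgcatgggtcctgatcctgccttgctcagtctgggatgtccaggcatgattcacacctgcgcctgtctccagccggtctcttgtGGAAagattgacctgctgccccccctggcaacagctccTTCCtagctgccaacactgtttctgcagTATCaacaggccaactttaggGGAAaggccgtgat
Ppbp: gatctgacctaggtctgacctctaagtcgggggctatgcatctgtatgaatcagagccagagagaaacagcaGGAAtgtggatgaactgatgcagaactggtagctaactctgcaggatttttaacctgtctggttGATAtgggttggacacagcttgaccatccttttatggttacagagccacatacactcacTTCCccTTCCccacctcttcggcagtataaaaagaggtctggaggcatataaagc
Pf4: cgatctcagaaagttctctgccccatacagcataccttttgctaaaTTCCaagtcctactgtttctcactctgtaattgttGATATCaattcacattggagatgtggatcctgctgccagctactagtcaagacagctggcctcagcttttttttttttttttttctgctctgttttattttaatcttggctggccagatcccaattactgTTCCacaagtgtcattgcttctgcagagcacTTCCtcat

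On both strands together, the GATA core occurred 1 time in the Selp promoter, 1 time in that of Ppbp and 2 times in that of Pf4, where the matches overlap in a palindrome. The ETS core occurred 6, 3 and 3 times in the same order. These short motifs are common, since 53.6% of 32851 promoters of this length hold the GATA core and 93.4% hold the ETS core. The letters of a TATA box are TATAAA, printed as TTTATA where the box lies on the minus strand. They were found 2 times in the Ppbp promoter and 0 times in the others, and 12.4% of all promoters hold them. A match describes these letters and is not evidence of binding. Vwf, also lower in M-EPCs, had no match among the promoter sequences used, so its promoter is not shown.

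All 4 cargo mRNAs were lowest in M-EPCs, where Selp was nearly undetected while Pf4 was at 27.0% of its F-EPC mean.
Relative to F-EPCs, the M-EPC mean was 9.87% for Vwf, 1.14% for Selp and 2.49% for Ppbp. Relative to OVX-EPCs, it was 6.87% for Vwf, 0.730% for Selp, 1.83% for Ppbp and 31.98% for Pf4. In bulk RNA, fewer cells that make a transcript and less transcript per cell cannot be told apart.

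In the M-EPC libraries Vwf had 215, 251 and 229.6 linked normalized counts. The F-EPC libraries had 2338, 2306 and 2409 of Vwf, and the OVX-EPC libraries 3467, 3157 and 3505. No 2 groups overlapped, and M-EPCs were far below both. On the log2(normalized count + 1) scale Vwf differed by -3.34 (SE 0.07, n = 3 per group) between M-EPCs and F-EPCs and by -3.86 (SE 0.08) between M-EPCs and OVX-EPCs.

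Selp was close to the detection limit in M-EPCs, with 4, 2 and 0 reads, or 3.81, 1.80 and 0 linked normalized counts. It had 165, 163 and 163 in F-EPCs, where the libraries barely differed. In OVX-EPCs Selp had 254, 253 and 261 linked normalized counts, all above F-EPCs. The log2 difference from F-EPCs was -6.11 (SE 0.66), and that from OVX-EPCs was -6.77 (SE 0.67). These values rest on 6 M-EPC reads in all and on the pseudocount of 1, and with a pseudocount of 0.1 they were -7.50 and -8.16. The value against F-EPCs moved to -6.62 without M-EPC replicate 1 and to -5.49 without M-EPC replicate 3, and that against OVX-EPCs to -7.29 and -6.14. By reads, M-EPCs held 1.22% of the F-EPC level (95% exact interval 0.447 to 2.68%, counting error only). The 0 reads of M-EPC replicate 3 allow up to 3.59 normalized counts, the worth of 3 reads.

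Ppbp varied most between M-EPC libraries among the well-detected members, with 45.7, 75.4 and 43.0 linked normalized counts. F-EPCs had 2160, 2174 and 2253 of Ppbp. OVX-EPCs had 2894, 3073 and 3014. The highest M-EPC library, replicate 2, remained far under the lowest F-EPC library. Ppbp differed on the log2 scale by -5.35 (SE 0.25) from F-EPCs and by -5.79 (SE 0.25) from OVX-EPCs.

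Pf4 was well detected in every library, with 996, 949 and 916 linked normalized counts in M-EPCs. F-EPCs had 3475, 3506 and 3601 of Pf4, the highest libraries of the 9. OVX-EPCs had 3174, 2773 and 2999, between the other groups and overlapping neither. Pf4 differed on the log2 scale by -1.89 (SE 0.04) from F-EPCs and by -1.64 (SE 0.07) from OVX-EPCs.

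**Figure D1:**
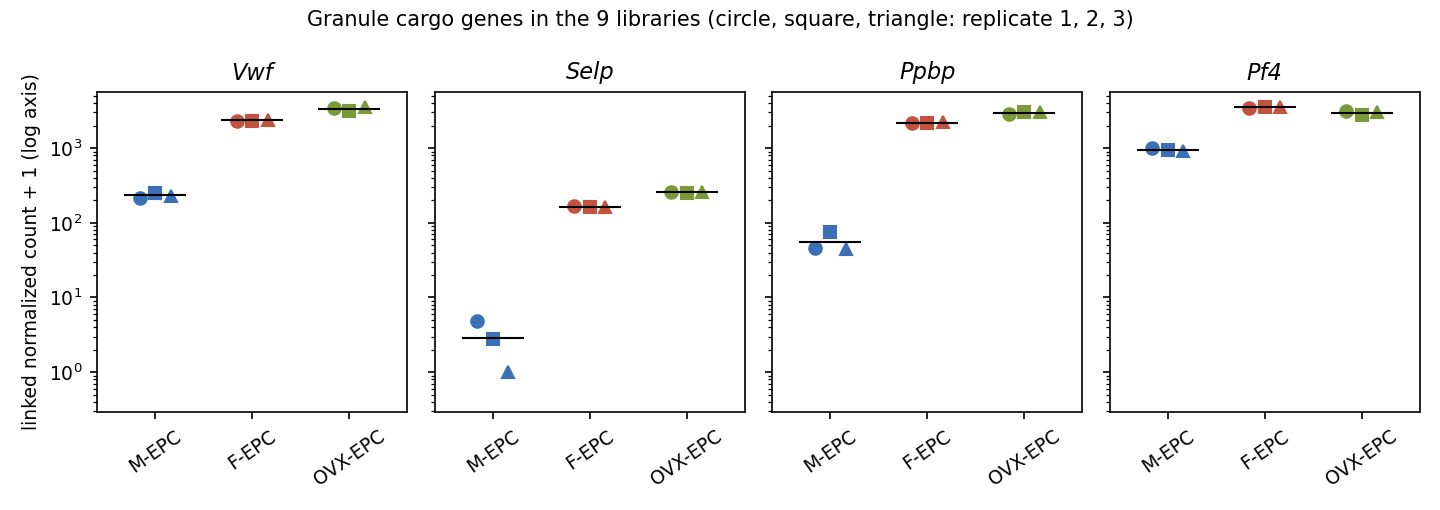
Linked normalized counts plus 1 on a log axis for each cargo gene in the 9 libraries, with circles, squares and triangles for replicates 1, 2 and 3 and a black line for the group mean. M-EPC libraries lie below all others for each gene, and Pf4 is the member whose F-EPC libraries (3475 to 3601) lie above the OVX-EPC libraries (2773 to 3174).

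The tables list only genes past the authors' screen of at least 2-fold, so direction and separation say little about membership. All 4 members were lower in every M-EPC library than in any F-EPC library. Limma called 97.6% of the listed genes of that comparison, 49.3% lower and 48.4% higher in M-EPCs, and the libraries did not overlap in 98.3%. All 4 members were also lower in every M-EPC library than in any OVX-EPC library, where 98.8% of listed genes were called, 58% lower and 40.8% higher in M-EPCs, and 99.2% did not overlap. The members were spread widely within these listed genes. Ordered from the lowest log2 difference between M-EPCs and F-EPCs, Selp ranked 3, Ppbp 17, Vwf 144 and Pf4 470 of 2093. Against OVX-EPCs, Selp ranked 2, Ppbp 22, Vwf 133 and Pf4 538 of 1317. Over all listed genes the median log2 difference was -0.99 for M-EPCs minus F-EPCs and -1.26 for M-EPCs minus OVX-EPCs. When size factors were estimated again on the listed genes, the members' differences shifted together and all remained negative, with Pf4 at -1.80 (edgeR's TMM) or -2.24 (DESeq2) against F-EPCs and -1.44 or -1.02 against OVX-EPCs.

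The split between genes shared with endothelium and platelet-restricted genes did not order the changes. Each pair held a member with a large and a member with a smaller difference. Between M-EPCs and F-EPCs, the log2 difference of Selp was lower than that of Vwf by 2.77, and that of Ppbp was lower than that of Pf4 by 3.46. The mean of the shared pair minus the mean of the restricted pair, on the log2 scale, was -3.27 ± 0.50 (SD, n = 3) in M-EPCs, -2.16 ± 0.02 in F-EPCs and -1.68 ± 0.03 in OVX-EPCs. The balance therefore differed by -1.11 (SE 0.29) between M-EPCs and F-EPCs and by -1.59 (SE 0.29) between M-EPCs and OVX-EPCs. Both are smaller than the difference within either pair, which against OVX-EPCs was 2.91 for Selp below Vwf and 4.15 for Ppbp below Pf4. With a pseudocount of 0.1 the balance differed by -1.79 and -2.28.

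**Figure D2:**
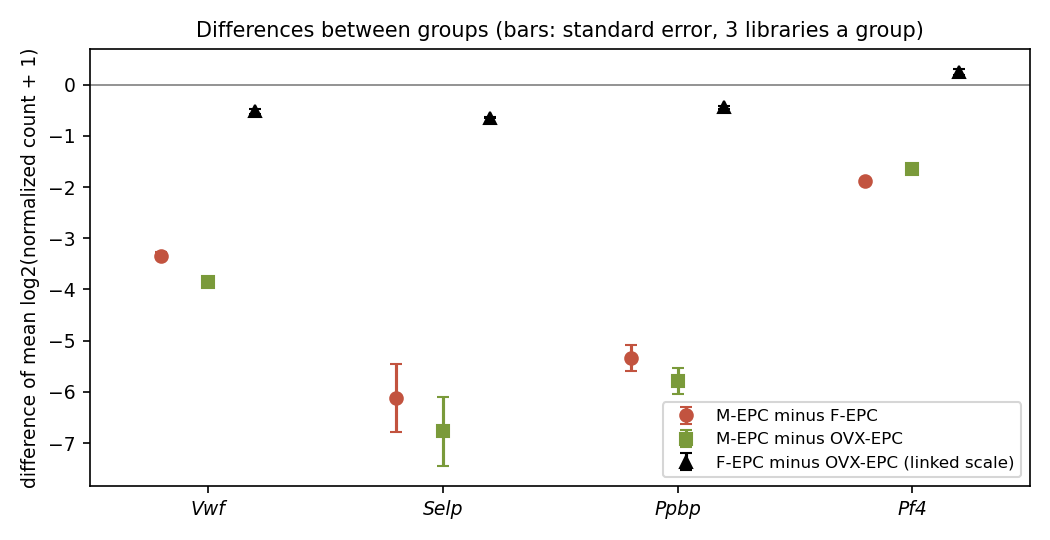
Differences between group means of log2(normalized count + 1) for each cargo gene, with bars for the standard error over 3 libraries a group. Selp and Ppbp, from different pairs, have the lowest values against both groups, and only Pf4 is above 0 for F-EPCs minus OVX-EPCs on the linked scale.

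Between F-EPCs and OVX-EPCs the members differed by under 2-fold on the linked scale, where Pf4 was higher in F-EPCs and the other members were higher in OVX-EPCs. OVX-EPCs had 1.44 times the F-EPC mean of Vwf, 1.57 times that of Selp and 1.36 times that of Ppbp, while F-EPCs had 1.18 times the OVX-EPC mean of Pf4. As log2 differences of F-EPCs minus OVX-EPCs these were -0.52 (SE 0.05) for Vwf, -0.65 (SE 0.02) for Selp, -0.45 (SE 0.03) for Ppbp and 0.24 (SE 0.06) for Pf4. The libraries of the 2 groups did not overlap for any member, which held for 48.3% of the 807 genes listed in both M-EPC tables, with OVX-EPCs higher in 37.5% and F-EPCs higher in 10.8% on the linked scale. The exact permutation test, two-sided, gave p = 0.10 for each member, the smallest value that 3 libraries against 3 allow. With the authors' size factors for F-EPCs and OVX-EPCs, Vwf, Selp and Ppbp were at -0.52, -0.65 and -0.45, and Pf4 at 0.24. The direction of Vwf, Selp and Ppbp changed when edgeR's TMM estimated size factors again on the listed genes of that comparison. They were then 0.61, 0.48 and 0.68, higher in F-EPCs like 58.4% of the 807 genes (6.20% had OVX-EPCs higher). With TMM on the genes of both M-EPC tables they were -0.18, -0.30 and -0.11. Pf4 was higher in F-EPCs under both TMM scalings, at 1.37 and 0.59. With TMM on the F-EPC and OVX-EPC genes, all 4 members were thus higher in F-EPCs and Pf4 differed by more than 2-fold.

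Ratios of reads within a library do not depend on any size factor. Of the 6 ratios between members, 4 kept all 3 groups apart, and Ppbp to Vwf and Selp to Ppbp did not. The share of other gene pairs that keep the groups apart was not computed, so this count is a description. Per 100 Pf4 reads, Ppbp had between 4.59 and 7.95 reads in M-EPCs, between 62.0 and 62.6 in F-EPCs and between 91.2 and 110.8 in OVX-EPCs. Vwf had between 21.6 and 26.5, between 65.8 and 67.3 and between 109.2 and 116.9 reads per 100 Pf4 reads in the same order. Relative to Pf4, both were thus lowest in M-EPCs and highest in OVX-EPCs, with no overlap between groups. Ppbp per 100 Vwf reads lay between 18.8 and 30 in M-EPCs and between 92.4 and 94.3 in F-EPCs, and OVX-EPCs, between 83.5 and 97.3, overlapped F-EPCs. Selp per 100 Vwf reads lay between 0 and 1.77 in M-EPCs, between 6.77 and 7.06 in F-EPCs and between 7.34 and 8.01 in OVX-EPCs. Selp per 100 Pf4 reads lay between 0 and 0.382, between 4.53 and 4.74 and between 8.01 and 9.12 in the same order. Selp per 100 Ppbp reads lay between 0 and 8.33 in M-EPCs, a range that holds that of F-EPCs (7.24 to 7.62) and reaches into that of OVX-EPCs (8.23 to 8.79). Of all reads on the 4 genes, Pf4 took between 74.3 and 79.0% in M-EPCs, between 42.7 and 43.0% in F-EPCs and between 29.95 and 32.4% in OVX-EPCs.

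**Figure D3:**
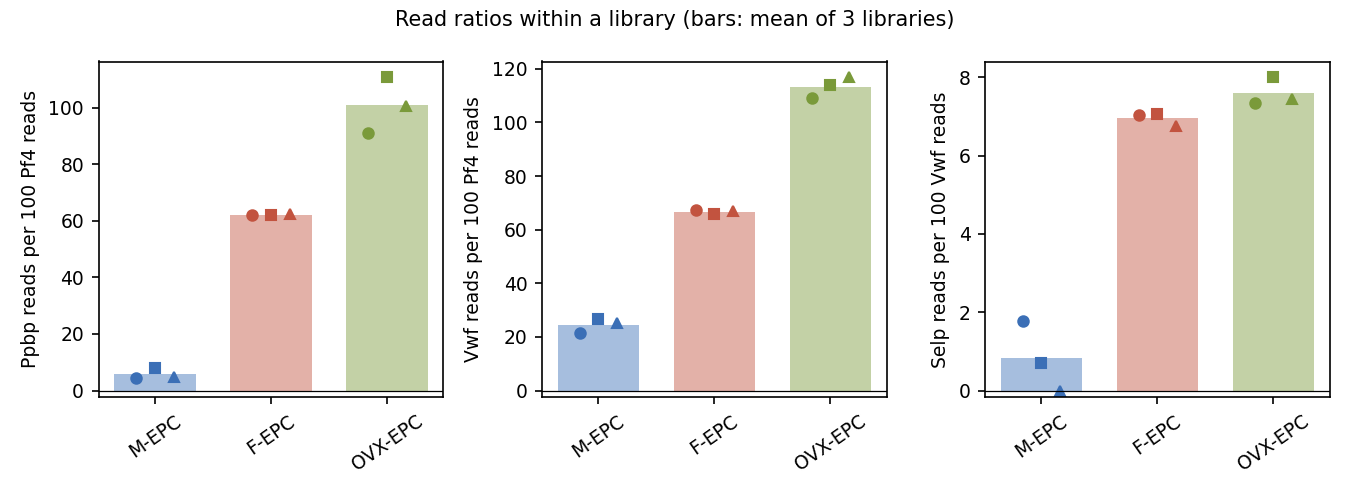
Reads of Ppbp or Vwf per 100 Pf4 reads and of Selp per 100 Vwf reads, with bars from 0 for the mean of 3 libraries and circles, squares and triangles for replicates 1, 2 and 3. Ppbp per 100 Pf4 reads goes from at most 7.95 in M-EPCs to at least 91.2 in OVX-EPCs.

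Per kilobase of the longest coding transcript, the order of the members' levels was the same in all groups, from Pf4 through Ppbp and Vwf to Selp. In F-EPCs the levels were 5999 linked normalized counts per kilobase for Pf4, 2027 for Ppbp, 266 for Vwf and 47.5 for Selp. M-EPCs had 1622, 50.5, 26.3 and 0.543 in this order, and OVX-EPCs 5071, 2764, 382 and 74.5. Neighbours in this order did not overlap between libraries in any group. The closest were Ppbp (39.7 to 69.7) and Vwf (24.3 to 28.5) in M-EPCs.

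Across the 9 libraries, the profiles of log2 linked values lay nearest each other for Selp and Ppbp (root mean square distance 0.67) and farthest apart for Selp and Pf4 (2.29). These distances follow the differences between groups used to choose the genes and are a description. Of the 807 genes listed in both M-EPC tables, those nearest to Vwf were Adgrg1, Atp2a3, Mfsd2b, Itgb3 and Ripor2, with distances between 0.15 and 0.24. Itgb3 is the beta chain of the platelet fibrinogen receptor. Those nearest to Ppbp were Rab27b, a GTPase of granule secretion, Gucy1a1, Irag1, Itga2b, the alpha chain of the fibrinogen receptor, and Gfi1b, a repressor needed for megakaryocyte development. Those nearest to Selp were Pde3a, the basophil protease gene Prss34, Mmrn1, which encodes an alpha granule protein, Gp5, a subunit of the platelet receptor for von Willebrand factor, and Muc13. Those nearest to Pf4 were Stk26, P2ry1, Tfrc, Rhov and Plbd1. P2ry1, a platelet ADP receptor, had group means of 90.9 in M-EPCs, 276 in F-EPCs and 237 in OVX-EPCs, and Tfrc, the transferrin receptor, 11498, 35516 and 38047 linked normalized counts.

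Of 28 megakaryocyte and platelet markers, 22 are listed for M-EPCs and F-EPCs, all 22 called lower in M-EPCs by limma (adjusted p under 0.05 and at least 2-fold), with a median log2 difference of -3.98 and the smallest change, -1.27, in Rgs18. The median was -3.89 with the genes at the detection floor in M-EPCs (at most 3 reads in every library) set to their bound. Against OVX-EPCs, 22 are listed and all were called lower, with a median of -5.06 (-4.75 with floor genes at their bound). Selp had a lower log2 difference than all 22 markers in both comparisons, while Pf4 had a higher one than 19 of 22 in the comparison with F-EPCs and 21 of 22 in that with OVX-EPCs. Summed over the 21 markers with values in all 9 libraries, the linked level lay between 796 and 915 in M-EPCs, between 8070 and 8298 in F-EPCs and between 13234 and 13988 in OVX-EPCs, and none of the 21 was at 0 in all M-EPC libraries. The part of megakaryocyte content in the members' values was not tested.

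All 21 of these markers had a higher mean in OVX-EPCs than in F-EPCs on the linked scale. The ratio lay between 1.31 for Slc35d3 and 4.66 for Tubb1, the platelet beta tubulin. All 21 were also higher in OVX-EPCs with size factors estimated from the genes of both M-EPC tables. Only 2 of 21 were with those estimated from the genes of the F-EPC and OVX-EPC table. None of the 21 had a lower ratio of OVX-EPCs to F-EPCs than Pf4, an order that a change of size factors leaves nearly fixed. Among the 807 genes, 459 were lowest in M-EPCs, and of these 71.2% had a higher mean in OVX-EPCs than in F-EPCs on the linked scale. With TMM this share was 52.5% on the genes of both M-EPC tables and 7.19% on those of the F-EPC and OVX-EPC table.

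**Figure D4:**
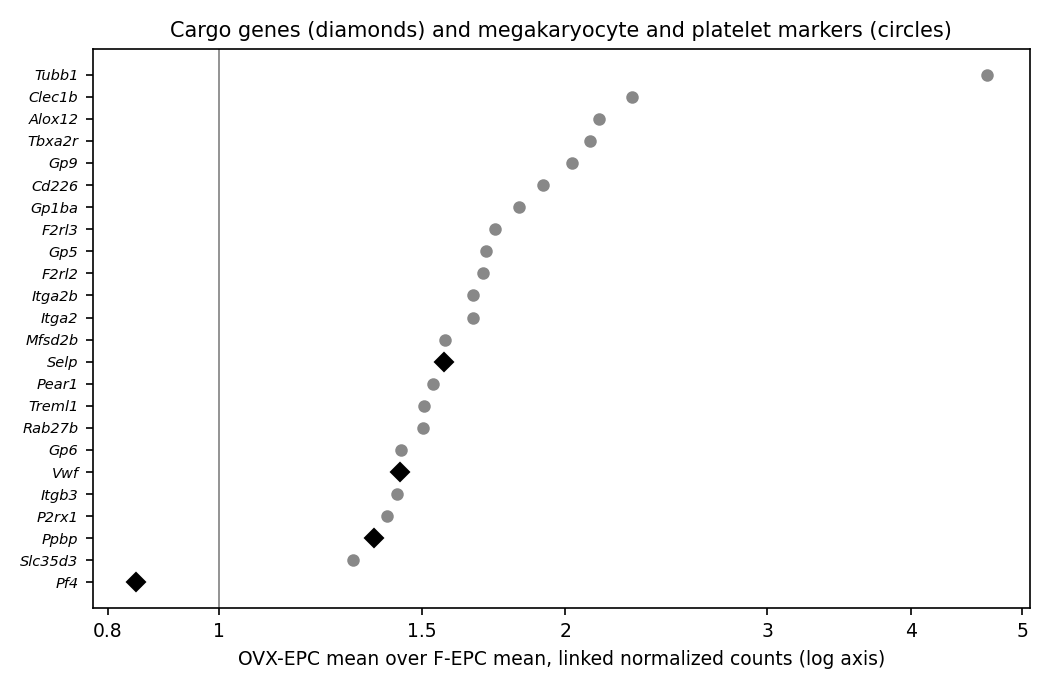
OVX-EPC mean over F-EPC mean of linked normalized counts on a log axis, for the 4 cargo genes (diamonds) and 20 of the 21 megakaryocyte and platelet markers (circles). Pf4 is the lowest and the only gene plotted under 1, and Vwf (1.44), Selp (1.57) and Ppbp (1.36) lie among the lower markers.

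Of 16 transcription factors of the megakaryocyte lineage, 6 are listed in each M-EPC comparison (Gata1, Gata2, Gfi1b, Nfe2, Zfpm1 and Tal1), and all 6 were called lower in M-EPCs. The others on the list were outside the tables and not analysed here. Gata2 had 1.497 ± 2.59 normalized counts in M-EPC libraries and 102.9 ± 10.8 in F-EPCs (log2 difference -5.87). Nfe2, a regulator of platelet formation, had 22.4 ± 5.19 and 181 ± 22.4 (-2.98), Zfpm1, a cofactor of GATA factors, 86.9 ± 9.90 and 281 ± 42.5 (-1.67), and Tal1 89.3 ± 18.3 and 238 ± 32.8 (-1.41).

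The rest of the alpha granule list did not move as one. Of 37 genes 17 are listed for M-EPCs and F-EPCs, with 11 called lower and 6 called higher in M-EPCs. The higher genes were Thbs1, Fn1, Srgn, Pdgfb, Timp1 and Ccl5. Thbs1, thrombospondin 1, had a normalized count of 14768 ± 273 in M-EPCs against 7076 ± 164 in F-EPCs (log2 difference 1.06), and Srgn, the proteoglycan that holds chemokines in granules, had 1527 ± 74.5 and 686 ± 86.2 (1.16). Itgb3 fell from 2689 ± 77.3 in F-EPCs to 341 ± 26.0 in M-EPCs (-2.98). Against OVX-EPCs 15 are listed, with 13 called lower and 2 called higher in M-EPCs, Pdgfb and Ccl5. Of 13 genes for making and releasing alpha granules, Rab27b was the only one listed against F-EPCs, lower in M-EPCs (-5.02), and Rab27b (-5.60) and Stx11 (-1.11) were listed against OVX-EPCs.

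Weibel-Palade body genes were mostly outside the tables. Of 25 on the list, 2 are listed for M-EPCs and F-EPCs, both called lower in M-EPCs: the chemokine Ccl2, with 181 ± 30.2 against 1636 ± 142 normalized counts (-3.18), and Sytl4, a Rab27 effector of granule exocytosis, with 4.11 ± 2.75 against 71.8 ± 20.9 (-4.00). Against OVX-EPCs, 2 are listed and both were called lower in M-EPCs, Sytl4 (-4.52) and Tnfrsf11b (-2.03), which encodes osteoprotegerin. Ccl2 is not listed there. It is listed for F-EPCs and OVX-EPCs, with 1697 ± 148 against 358 ± 31.4 normalized counts (log2 difference 2.24). Genes outside the tables were not analysed here.

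Endothelial markers were mixed. Of 28, 7 are listed for M-EPCs and F-EPCs, and Kdr, Tie1, Esam, Icam2 and Myct1 were called lower in M-EPCs while Pecam1 and Stab2 were called higher. Kdr, the receptor of vascular endothelial growth factor, had 65.0 ± 6.65 and 343 ± 23.9 normalized counts (-2.39). Pecam1, which encodes the CD31 used to select the cells, had 487 ± 3.64 and 157 ± 7.56 (1.62). Against OVX-EPCs, 5 are listed and all were called lower. Summed over the 5 endothelial markers with all 9 libraries, the level lay between 133.9 and 170.4 in M-EPCs, between 651 and 705 in F-EPCs and between 678 and 740 in OVX-EPCs.

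Of 13 basophil and mast cell markers, 8 are listed against F-EPCs and 9 against OVX-EPCs, all called lower in M-EPCs. The sum of the 8 with all 9 libraries lay between 39.5 and 62.8 in M-EPCs, where Mcpt8 was at 0 in every library, between 532 and 585 in F-EPCs and between 763 and 966 in OVX-EPCs. Of 14 macrophage and dendritic cell markers, 5 are listed for M-EPCs and F-EPCs, with H2-Aa, H2-Ab1 and H2-Eb1 called higher and Flt3 and Ccr7 called lower in M-EPCs. Against OVX-EPCs 6 are listed, with the same 3 MHC class II genes called higher and Itgax, Flt3 and Ccr7 called lower in M-EPCs. Itgax, the CD11c chain of dendritic cells, had a normalized count of 1193 ± 61.1 in M-EPCs against 2762 ± 183 in OVX-EPCs (-1.21). H2-Aa, an MHC class II chain, had a normalized count of 31899 ± 473 in M-EPCs against 834 ± 61.4 in F-EPCs (5.26). The sum of the 5 listed in both comparisons, carried by the MHC class II genes, lay between 73190 and 74441 in M-EPCs, between 1904 and 2181 in F-EPCs and between 11187 and 11871 in OVX-EPCs. Of 11 erythroid markers, Epor was the only one listed for M-EPCs and F-EPCs, called higher in M-EPCs (211 ± 37.1 against 72.8 ± 17.2 normalized counts), and 0 are listed against OVX-EPCs. Of 10 stromal markers, Col1a2 (307 ± 25.5 against 112 ± 7.95) and Pdgfra (23.2 ± 13.1 against 3.27 ± 1.19) were called higher in M-EPCs when F-EPCs were the comparison, and Col1a1, Des and Lum were called lower when it was OVX-EPCs. In the F-EPC and OVX-EPC table, where 67.3% of genes were called lower in F-EPCs, Epor (75.5 ± 17.9 against 291 ± 22.3) and 6 stromal markers were called lower in F-EPCs, among them Col1a2 (116 ± 8.22 against 591 ± 72.3) and Pdgfra (3.39 ± 1.24 against 48.0 ± 3.61). The part of these cell types in the members' values was not tested.

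**Figure D5:**
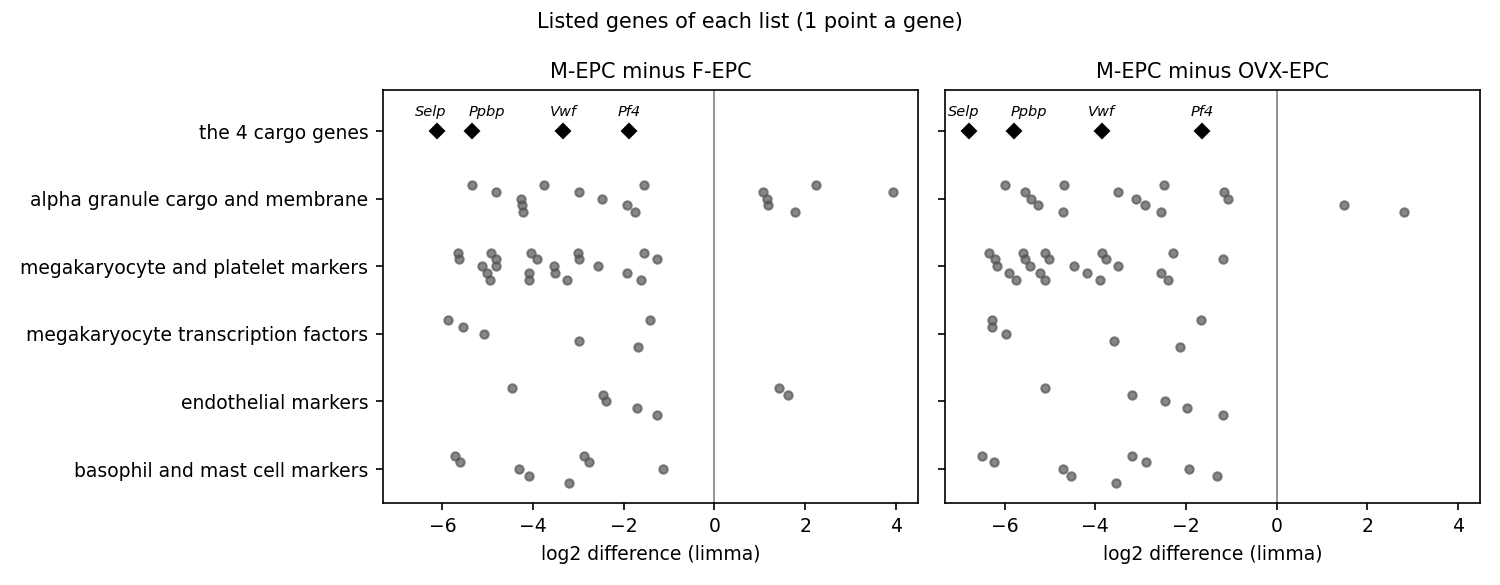
Log2 differences (limma) of the 4 cargo genes (diamonds) and of the listed genes of 5 lists (1 point a gene) for M-EPCs minus F-EPCs and M-EPCs minus OVX-EPCs. All 22 megakaryocyte and platelet markers are below 0 in both panels, and 6 genes of the alpha granule list are above 0 against F-EPCs.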

How the data were processed

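The 9 RNA libraries, 3 for each kind of EPC, took their group and replicate number from the labels. Per the paper's methods and the submitters' processing notes, the authors mapped reads with HISAT2 to mm10, quantified them with Cuffquant and Cuffnorm and compared groups with DEseq. Versions and annotation are not given in the sources used here. The deposited signal is a normalized count, reads divided by a size factor set in each comparison, for genes past the authors' screen only. Size factors were recovered here from the smallest step between a library's values. Multiplied by them, 100% of values were within 0.01 of a whole read. The authors' log2 fold changes and p-values, also deposited, were not used. Library sizes of all genes are therefore unknown.

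Limma 3.58.1 in R 4.3.3 was fitted to log2(normalized count + 1) of the 6 libraries of each comparison, with a filter on a mean of 1 in either group and p-values adjusted by Benjamini-Hochberg across all genes listed there. Calls needed an adjusted p-value below 0.05 together with an absolute log2 difference of 1 or more. Standard errors of members are from the libraries of their 2 groups. F-EPCs and OVX-EPCs were compared by an exact permutation test on linked values (SciPy 1.17.1). On simulated data with 200 genes changed by 4-fold, limma recovered 199 on the table of M-EPCs and F-EPCs (2093 genes) with 3 false calls. Most genes were left unchanged there, whereas limma called 97.6% of the real listed genes of that comparison. The simulation therefore does not give an error rate for the real calls.

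Named genes were the members, the 5 genes nearest to each by root mean square distance of centred log2 profiles, and up to 4 listed genes of each list with the highest mean. Other genes are named as part of a count, the limits of a range or the exceptions to a list. The members and the lists were chosen with earlier results of these data known. Some genes of the lists are counted but not reported here by name. Alternatives were edgeR 4.0.16, DESeq2 1.42.0, other size factors, filters and pseudocounts, a replicate block and leaving out each library. Rescaling of F-EPCs against OVX-EPCs was added after the data were seen. No 2 libraries of a group agreed within sampling noise. Promoter sequences are from RefSeq (3 of 4 members matched) and positions and lengths from GENCODE of GRCm38. Figures were drawn with matplotlib 3.10.9.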

Additional observations from a re-analysis of the deposited data

How the results depend on the processing

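Of 218 recomputed values, 196 were counted as unchanged. Counts of genes had to stay within 1.5 times, whatever their direction. Differences had to keep their direction and stay within the spread between replicates. Members in F-EPCs minus OVX-EPCs had to keep their direction only, so that Pf4 at 1.37 beside 0.24 was counted as unchanged. Rescaling on the listed genes moved the called genes between F-EPCs and OVX-EPCs from 796 (250 higher and 546 lower in F-EPCs) to 400 (255 and 145) with edgeR's TMM and 402 (255 and 147) with DESeq2's size factors. For M-EPCs against F-EPCs DESeq2's size factors gave 1666 called genes (619 higher and 1047 lower in M-EPCs) beside 2043 (1012 and 1031), and against OVX-EPCs 1063 (548 and 515) beside 1301 (537 and 764). Rescaling moved the median of the listed genes of the F-EPC and OVX-EPC table from -1.31 to -0.19 (TMM) or -0.20 (DESeq2). For M-EPCs minus F-EPCs, TMM gave -3.25 for Vwf and -1.80 for Pf4, and DESeq2's size factors gave -3.69 for Vwf, -5.69 for Ppbp and -2.24 for Pf4. For M-EPCs minus OVX-EPCs, TMM gave -3.66 for Vwf and -1.44 for Pf4, and DESeq2's size factors -3.23 for Vwf, -5.17 for Ppbp and -1.02 for Pf4. A pseudocount of 0.1 moved Selp to -7.50 and -8.16 and the balance of the pairs to -1.79 and -2.28.

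For F-EPCs minus OVX-EPCs, the authors' size factors of that comparison kept the linked direction of every member. Size factors estimated again from its listed genes, chosen after seeing the data, reversed Vwf, Selp and Ppbp. Vwf went to 0.61 (TMM) and 0.60 (DESeq2), Selp to 0.48 and 0.47 and Ppbp to 0.68 and 0.67, while the direction of Pf4 held. A change of size factors shifts all genes by nearly the same amount. Of the genes this rescaling rested on, 68.6% were lower in F-EPCs, and TMM moved their median from -1.31 to -0.19. Which scale is nearer to the true levels was not tested.

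Leaving out each library in turn gave between 1864 and 1913 called genes for M-EPCs against F-EPCs, between 1208 and 1235 against OVX-EPCs and between 724 and 755 for F-EPCs against OVX-EPCs. Against F-EPCs the members' log2 differences lay between -3.40 and -3.28 for Vwf, -6.62 and -5.49 for Selp, -5.60 and -5.20 for Ppbp, and -1.92 and -1.86 for Pf4. Against OVX-EPCs they lay between -3.92 and -3.81, -7.29 and -6.14, -6.05 and -5.65, and -1.69 and -1.60. The balance of the pairs lay between -1.37 and -0.88, between -1.86 and -1.37, and, for F-EPCs minus OVX-EPCs, between -0.49 and -0.47. For F-EPCs minus OVX-EPCs the members lay between -0.57 and -0.49 for Vwf, -0.65 and -0.63 for Selp, -0.47 and -0.43 for Ppbp, and 0.19 and 0.29 for Pf4.

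Same-numbered libraries did not deviate together over the listed genes (correlations between -0.02 and 0.03), so these genes show no pairing by number. Whether same-numbered libraries were prepared together is not stated in the labels. With the replicate number as a block, 2003, 1288 and 781 genes were called. In this balanced design the block cannot change a mean difference. Depth limits Selp in M-EPCs, which had 6 reads in all. Under the 4 size factor sets added after seeing the data, the balance of F-EPCs minus OVX-EPCs was -0.48 each time.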

Other observations

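Genes of the receptors and partners through which the cargo acts were also compared. Of 19 on the list, 6 are listed for M-EPCs and F-EPCs, and limma called 5 lower, with Gp1ba, Itgb3, Cxcr2 and Cd24a among them, and Stab2 higher in M-EPCs. Gp1ba, which encodes the chain of the platelet receptor that binds von Willebrand factor, had a normalized count of 42.6 ± 5.82 in M-EPCs against 354 ± 63.1 in F-EPCs (log2 difference -3.02, n = 3 per group). Cd24a, a ligand of P-selectin, had 9.999 ± 3.03 and 109.98 ± 17.1 (-3.36). Stab2, a scavenger receptor of sinusoidal endothelium, went the other way, with 816 ± 34.4 and 302 ± 12.4 (1.43). Against OVX-EPCs, 7 are listed and all were called lower in M-EPCs. Cxcr2, the receptor for the chemokine made from Ppbp, was at 0 in every M-EPC library.

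In the chemokine cluster of chromosome 5, Cxcl5 lies next to Ppbp and was the only one of 5 neighbouring CXC chemokine genes listed in the M-EPC comparisons. Its normalized count was 0, 7.18 and 0 in M-EPC libraries and 20.2, 31.0 and 28.4 in F-EPCs (log2 difference -3.75, SE 0.89). Against OVX-EPCs the log2 difference of Cxcl5 was -4.70 (SE 0.87).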
